A study of Mus musculus with 6 samples.

Results

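Notch2, a receptor of the Notch pathway, and Dll3, an inhibitory ligand of the same pathway, are 2 of the 223 genes that the authors' deposited table lists as different between mouse brainstem gliomas with and without the histone mutation H3.3K27M. Both were found by gene name. They were chosen by their measured difference between these same tumours, upward for Notch2 and downward for Dll3, so every value that follows for that difference is a description and no test was run on it. RNA was sequenced in bulk from 6 independent tumours. The first group is 3 tumours with PDGF-B, p53 loss and H3.3K27M, and the second is 3 tumours with PDGF-B and p53 loss alone, whose titles read H3.3WT without saying whether a wild-type H3.3 was introduced. All 6 arose in C57BL/6 mice that carry the Nestin tv-a transgene and a floxed p53 gene. The transgene makes cells that express nestin, a progenitor marker, open to infection by avian viral vectors, so tumours of this model start from cells of that kind. PDGF-B, a mitogen of oligodendrocyte precursors, and p53 loss are shared by both groups. H3.3K27M replaces a lysine of the histone variant H3.3 with methionine and is frequent in human midline gliomas. Neither the agent that deleted p53 nor the age of the mice is stated in the labels. Titles begin with 12 in the H3.3K27M group and with 11 in the other. What those numbers mark is not stated, and their part cannot be told apart from that of the mutation.

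Notch receptors sit in the membrane and are activated by Delta or Jagged ligands on a neighbouring cell. ADAM proteases and then gamma-secretase cut the receptor, and its intracellular part enters the nucleus, where it joins RBPJ and Mastermind proteins to switch on Hes and Hey genes, which repress proneural factors. In the developing brain this keeps progenitors undifferentiated and favours glial fates. Dll3 is the divergent member of the Delta family. It does not activate Notch in a neighbouring cell, is held largely inside the cell that makes it and dampens Notch there, and it is known from mouse work as a gene of neural progenitors and oligodendrocyte precursors and from human work as a surface target in neuroendocrine tumours and some gliomas.

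The regulatory sequence at the start of each gene is shown because the receptor and the ligand differ in it, although no chromatin mark and no factor binding was measured in these tumours. The 250 bases before the RefSeq start of each gene, on build GRCm38.p6, read 5′ to 3′ on the gene's strand, with the E-box CAGCTG in capitals where it occurs. Notch2 lies on the plus strand at chr3:98013288-98013537 and Dll3 on the minus strand at chr7:28301786-28302035.
Notch2: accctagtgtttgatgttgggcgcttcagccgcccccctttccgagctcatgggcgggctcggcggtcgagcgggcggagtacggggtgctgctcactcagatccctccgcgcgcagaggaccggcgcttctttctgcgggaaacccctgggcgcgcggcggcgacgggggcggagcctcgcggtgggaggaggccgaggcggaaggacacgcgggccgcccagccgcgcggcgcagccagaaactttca
Dll3: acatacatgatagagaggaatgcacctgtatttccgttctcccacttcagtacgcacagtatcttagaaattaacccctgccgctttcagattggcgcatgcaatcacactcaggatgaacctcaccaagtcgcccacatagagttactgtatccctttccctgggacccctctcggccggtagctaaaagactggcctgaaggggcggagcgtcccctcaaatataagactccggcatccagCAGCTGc
The Notch2 window was 72% G and C and held 34 CpG dinucleotides, more than 96.5% of the 32851 promoter windows of that length in the RefSeq table. The Dll3 window was 52% G and C and held 10 CpG dinucleotides, against a median of 6 over all windows. The Dll3 window held 1 CAGCTG, a hexamer that reads the same on both strands and that proneural factors of the basic helix-loop-helix class can bind, with its first base 7 bases before the start. The Notch2 window held none. Of all windows 13.0% hold this hexamer. The RBPJ core TGGGAA, searched on both strands, occurred in neither window and in 21.6% of all windows, and no match means only that these letters are absent from these bases.

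Notch2 (ENSMUSG00000027878, chromosome 3) was higher in every H3.3K27M tumour than in any tumour without the mutation. It had 398, 426 and 511 normalized counts in H3.3K27M replicates 1, 2 and 3, against 216, 270 and 269 in replicates 1, 2 and 3 without H3.3K27M. A normalized count is a read count that the authors divided by a size factor of the library. H3.3K27M replicate 3 was the highest and replicate 1 without the mutation the lowest, and the groups did not overlap. The mean over H3.3K27M tumours was 445 ± 58.9 normalized counts, against 252 ± 30.9 over tumours without it (SD, n = 3 each). Between the nearest tumours of the groups, H3.3K27M replicate 1 and replicate 2 without the mutation, the gap was 128 normalized counts or 1.47-fold. Notch2 has a rise of 1.76-fold in the authors' deposited table (log2 0.82, adjusted p = 0.0361).

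Dll3 (ENSMUSG00000003436, chromosome 7) moved the other way. It had 475, 668 and 545 normalized counts in H3.3K27M replicates 1, 2 and 3, against 864, 812 and 1025 in replicates 1, 2 and 3 without H3.3K27M. The groups did not overlap, but as a fold the gap was narrower than for Notch2. H3.3K27M replicate 2, the highest of its group, lay 144 normalized counts under replicate 2 without the mutation, a 1.22-fold step, which is wider than the Notch2 gap in counts. The mean over H3.3K27M tumours was 563 ± 97.7 normalized counts, against 901 ± 111 over tumours without it (SD, n = 3 each). Dll3 has a fall of 1.60-fold in the authors' deposited table (log2 -0.68, adjusted p = 0.0295). As the tumours were sequenced in bulk, fewer cells that express a gene and less of its RNA per cell cannot be told apart, for either gene.

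**Figure D1:**
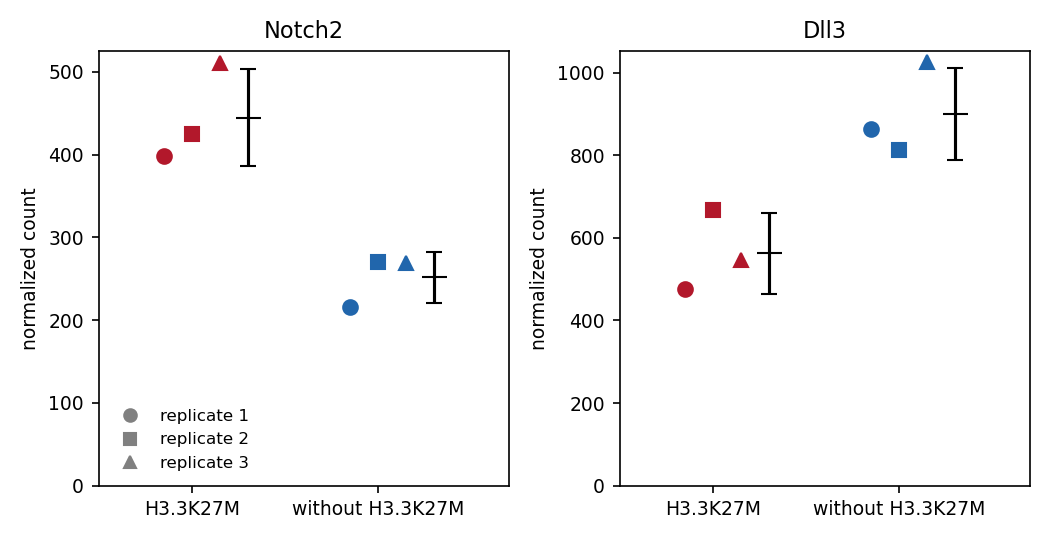
Normalized counts of Notch2 (left panel) and Dll3 (right panel) in each tumour, H3.3K27M in red and without H3.3K27M in blue; marker shapes give the replicate number, and the black bars are the mean ± SD of 3 tumours. The H3.3K27M tumours lie between 398 and 511 for Notch2 and between 475 and 668 for Dll3, and the other tumours between 216 and 270 and between 812 and 1025.

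Both differences are modest beside the rest of the table. Among the 182 listed genes that were higher in H3.3K27M tumours, Notch2 ranked 152 by size of change, and among the 41 that were lower Dll3 ranked 29. By adjusted p, Notch2 ranked 192 and Dll3 169 of 223, where the last listed gene has 0.0495. The median size of the finite log2 changes in the table was 1.46. Their levels were ordinary for the table, since Dll3 ranked 67 and Notch2 108 of 223 by mean normalized count. Non-overlapping groups are the rule here too, with 222 of the 223 listed genes. That share follows from the selection of the table.

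**Figure D2:**
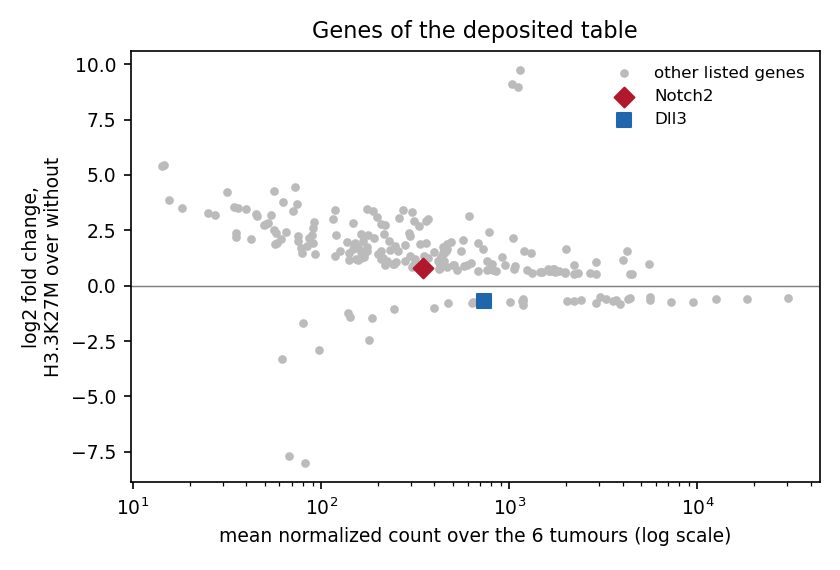
Log2 fold change (H3.3K27M over without) of the listed genes against their mean normalized count over the 6 tumours on a log scale; the 4 genes with 0 counts throughout a group have no finite value and are not drawn. Notch2 at 0.82 and Dll3 at -0.68 lie close to the zero line on opposite sides of it.

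The spread between tumours of a group can be set beside the error of read counting. Read as whole reads divided by a size factor, the values of Notch2 stand for 412 to 530 reads per H3.3K27M library and 215 to 277 reads in the others, and those of Dll3 for 504 to 647 and 832 to 940 reads. Counting alone would give Notch2 an SD of 20.9 normalized counts in the H3.3K27M group, against 16.1 in the group without it. The observed SD was 2.82 and 1.92 times as large. For Dll3 the counting SD was 23.5 in the H3.3K27M group, against 30.4 in the group without it, and the observed SD was 4.15 and 3.65 times as large. These figures cover counting error only and hold if 1 step of the values is 1 read.

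Levels of the receptor and the ligand can be set side by side only per length. Per kilobase of the longest annotated transcript, Notch2 (34 exons, 10500 bases in GENCODE M21) stood at 42.4 ± 5.61 normalized counts per kilobase with H3.3K27M, against 24.0 ± 2.94 without it. Dll3 (9 exons, 2618 bases) stood at 215 ± 37.3 per kilobase with H3.3K27M, against 344 ± 42.4 without it (SD, n = 3 each). On this scale the ligand was the more abundant transcript in both groups. The annotation is newer than the one named by the submitters, and which isoforms the tumours used was not analysed here. Of the 50-base stretches of these transcripts, 3.86% of Notch2 recur in another annotated gene, the unclassified Gm42820, which lies within the span of Notch2 on the same strand, and 0% of Dll3 recur elsewhere. No gene overlaps Dll3 in that annotation.

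The ratio of the receptor to the ligand within a tumour does not depend on how the library was scaled. The log2 ratio of Notch2 to Dll3 normalized counts was -0.26, -0.65 and -0.09 in H3.3K27M replicates 1, 2 and 3, against -2.0, -1.59 and -1.93 in replicates 1, 2 and 3 without H3.3K27M. All H3.3K27M tumours lay above all others, with 0.94 between the lowest of the first group and the highest of the second. The mean was -0.33 ± 0.29 with H3.3K27M, against -1.84 ± 0.22 without it (SD, n = 3 each), a difference of 1.5 ± 0.21 (SE), or 2.84-fold. The sign of this difference is fixed by the choice of a gene that was higher and a gene that was lower. Within the H3.3K27M group the genes did not mirror each other. Replicate 3 had the most Notch2 but an intermediate Dll3, and replicate 2 had the most Dll3 but an intermediate Notch2. In the other group replicates 2 and 3 had nearly the same Notch2, 270 and 269 normalized counts, with the lowest and the highest Dll3 of the group, 812 and 1025.

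**Figure D3:**
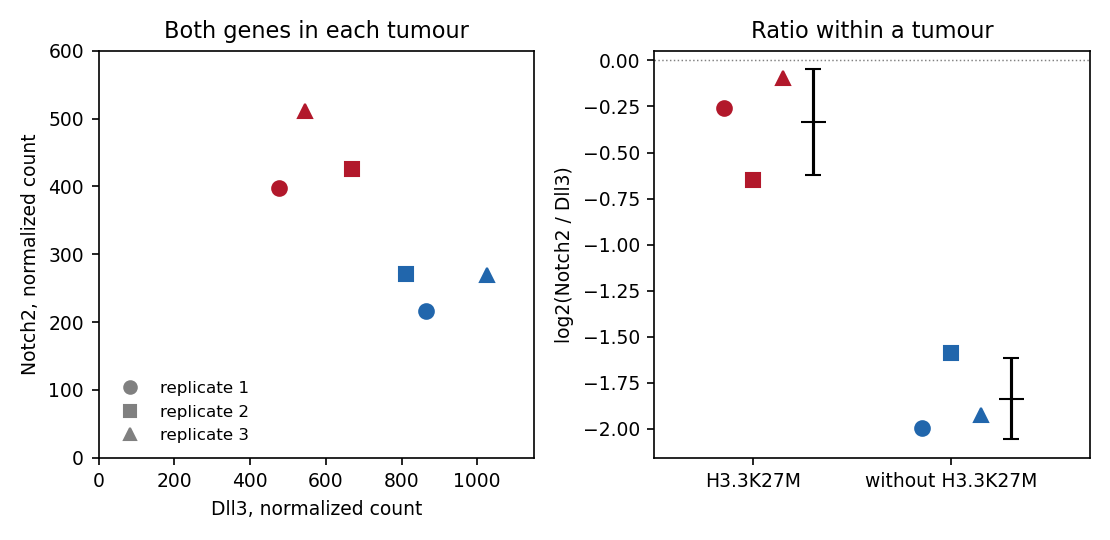
Left, Notch2 against Dll3 in normalized counts, 1 point per tumour; right, the log2 ratio of Notch2 to Dll3 in each tumour with the mean ± SD of 3 tumours in black. H3.3K27M tumours (red) lie between -0.65 and -0.09 and tumours without H3.3K27M (blue) between -2.0 and -1.59.

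The directions given here are relative to the authors' size factors. When each tumour was instead rescaled to the median of the listed genes, of which 81.6% were higher in H3.3K27M tumours, the scale of that group moved down by a mean of 1.19 (log2). Under this scaling the log2 change was -0.37 for Notch2 and -1.84 for Dll3. The turn of Notch2 follows from that shift, as it would for any gene with a rise well under it, and so bears on the scale and not on Notch2.

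No other gene of the Notch pathway lists was in the table. Of 87 pathway genes in 7 lists, 1 was listed as higher and 1 as lower in H3.3K27M tumours, and these are Notch2 and Dll3 themselves. That is 1.15% of the pathway in each direction, beside 1.11% of the 16365 tested genes listed as higher and 0.251% listed as lower, and 2.3% beside 1.36% for both directions together. The rule that chose the 2 genes used this contrast, so nothing is read from those shares. The counts by role were 1 of 4 receptors, with Notch2 listed, and 1 of 12 ligands, with Dll3 listed. None was listed of 6 glycosyltransferases such as Lfng, of 10 proteases such as Adam10, of 17 endocytosis and ubiquitin ligase genes such as Mib1 and Numb, of 23 nuclear cofactors such as Rbpj and Maml1, and of 15 target genes such as Hes1, Hes5 and Hey1. Of 22 proneural factors and associated genes, 0 were listed. A gene that is not listed was either at or above an adjusted p of 0.05 or not tested, so its level is unknown here and no change in the pathway's output can be stated in either direction. Of the 10 protein-coding genes that flank Notch2 in order of start position 0 were listed, and of the 10 that flank Dll3 also 0. With 1.36% of tested genes listed, 0 of 10 carries little information.

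The listed genes closest to Notch2 in their pattern over the 6 tumours were Vps13a, Cntnap5b, Agt, Epb4.1 and Ptch1. Likeness was the root-mean-square distance between log2(normalized count + 1) profiles, each centred on the gene's own mean. It lay between 0.12 and 0.15 for these 5 genes against a median of 0.52 over the 181 other higher genes. The distance includes the difference between the groups, so it favours genes with a change of similar size. The nearest genes lie under the median by construction. Vps13a, a lipid transfer protein gene, averaged 533 ± 43.3 normalized counts with H3.3K27M, against 316 ± 31.9 without it. Agt, the angiotensinogen gene that astrocytes express in the brain, averaged 306 ± 38.9 against 143 ± 20.4. Ptch1, the Hedgehog receptor, averaged 2141 ± 90.6 against 1373 ± 224 (SD, n = 3 each). Agt shared the order of Notch2 in the tumours, with 281, 286 and 351 normalized counts in H3.3K27M replicates 1, 2 and 3. It had 120, 156 and 154 in replicates 1, 2 and 3 without the mutation. Agt was picked for a profile near that of Notch2, so a shared order is largely given. Some of its steps are small, such as 281 against 286 and 156 against 154. Aqp4 and Aldh1l1, the other astrocyte markers among the listed genes, were not picked by profile and did not share that order in the H3.3K27M group. In its replicates 1, 2 and 3 Aqp4 had 807, 499 and 780 normalized counts, and Aldh1l1 had 323, 199 and 266. Cntnap5b, a neurexin-family adhesion gene, and Epb4.1, a membrane skeleton gene, were 1.80-fold and 1.52-fold higher in H3.3K27M tumours in the authors' deposited table.

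The genes closest to Dll3 were Bcas1, Scrg1, Kcnip3, Leprel1 and Pllp. Their distances lay between 0.09 and 0.12 against a median of 0.23 over the 40 other lower genes. Here too the distance includes the difference between the groups, and the nearest genes lie under the median by construction. Bcas1, a gene of cells entering oligodendrocyte differentiation, was the nearest. It had 8751, 11375 and 9649 normalized counts in H3.3K27M replicates 1, 2 and 3, against 15704, 14111 and 15461 in replicates 1, 2 and 3 without the mutation. Kcnip3, a calcium-binding protein gene, had 6331, 8127 and 6906, against 13086, 9777 and 12855. In both genes, as in Dll3, H3.3K27M replicate 2 was the highest of its group and replicate 1 the lowest, and replicate 2 without the mutation was the lowest of its group. The highest without the mutation was replicate 3 for Dll3 but replicate 1 for Bcas1 and Kcnip3. Both genes were picked for a profile near that of Dll3, so likeness in order is largely given. Leprel1, a collagen prolyl hydroxylase gene, kept the same order in the H3.3K27M group, with 403, 547 and 437 normalized counts, against 875, 691 and 835 in the others. Scrg1 and the myelin membrane gene Pllp were each 1.51-fold lower in H3.3K27M tumours in the authors' deposited table.

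**Figure D4:**
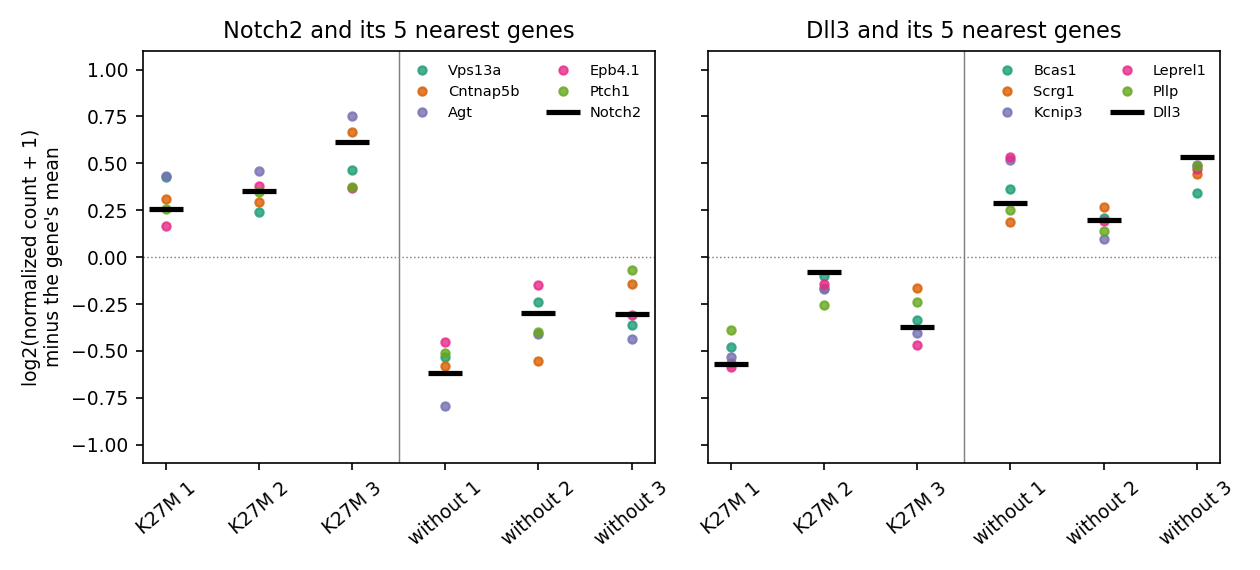
Profiles of Notch2 (left) and Dll3 (right) as black dashes with their 5 nearest listed genes as coloured points, as log2(normalized count + 1) minus the gene's mean, in H3.3K27M replicates 1 to 3 and then in the replicates without it. The distances are 0.12 to 0.15 for the genes near Notch2 and 0.09 to 0.12 for those near Dll3.

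Markers of several cell types moved with the groups, and their part in the differences of Notch2 and Dll3 was not tested. The counts stand beside 1.11% of all tested genes listed as higher and 0.251% listed as lower, and they were not tested against those shares. All marker lists were chosen with earlier results of these data known. Of 15 oligodendrocyte precursor markers, 3 were listed, all lower in H3.3K27M tumours, namely Dll3, Bcas1 and Kcnip3. Dll3 was itself chosen for being lower, and of the 14 others 2 were listed. Without Dll3, the summed level of the listed ones was 15083 to 19502 normalized counts with H3.3K27M, against 23888 to 28790 without it. Of 20 neuron markers, 7 were listed, all higher, namely Nefl, Nefh, Gad2, Slc32a1, Camk2a, Slc12a5 and Thy1. Their sums were 2427 to 6064 with H3.3K27M, against 594 to 1090 without it. H3.3K27M replicate 2, which had the most Dll3 of its group, had the lowest neuron sum of its group, 2427 against 5950 and 6064 in replicates 1 and 3. In the other group the neuron sums were 1090, 918 and 594 in replicates 1, 2 and 3, where Dll3 had 864, 812 and 1025. Of 15 astrocyte markers, 3 were listed, all higher (Aqp4, Aldh1l1 and Agt), with sums of 984 to 1411 against 405 to 569. Of 12 mural and fibroblast markers, 2 were listed, both higher (Dcn and Lum), with sums of 872 to 1489 against 200.3 to 424. The mural and fibroblast sums were 934, 872 and 1489 in H3.3K27M replicates 1, 2 and 3, where Notch2 had 398, 426 and 511 normalized counts. In replicates 1, 2 and 3 without the mutation these sums were 200.3, 244 and 424, where Notch2 had 216, 270 and 269. The orders of the tumours within a group thus differed in part. Of 15 oligodendrocyte markers, 1 was listed as higher, Ermn, at 80.6 to 217 against 18.5 to 31.2. Pllp and Bcas1, described above as genes of myelin and of oligodendrocyte differentiation, are outside this list and were lower in H3.3K27M tumours. Pllp averaged 3413 ± 188 normalized counts with H3.3K27M, against 5146 ± 643 without it (SD, n = 3 each). Of 10 ependyma and choroid plexus markers 1 was listed as higher, Otx2, at 153 to 239 against 0 to 48.8. Replicate 3 of the tumours without the mutation had 0. No listed member of the other lists was at 0 in any tumour. None of 15 microglia and macrophage markers or of 13 endothelial markers was listed. These sums cover listed markers only, which are in the table because they differ between these groups. Glioma markers such as Olig2 and Pdgfra, both also on the oligodendrocyte precursor list, are not among the listed genes. Glial genes such as Bcas1 and Aqp4 are listed, but for their difference between the groups, so the tissue label was not checked.

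**Figure D5:**
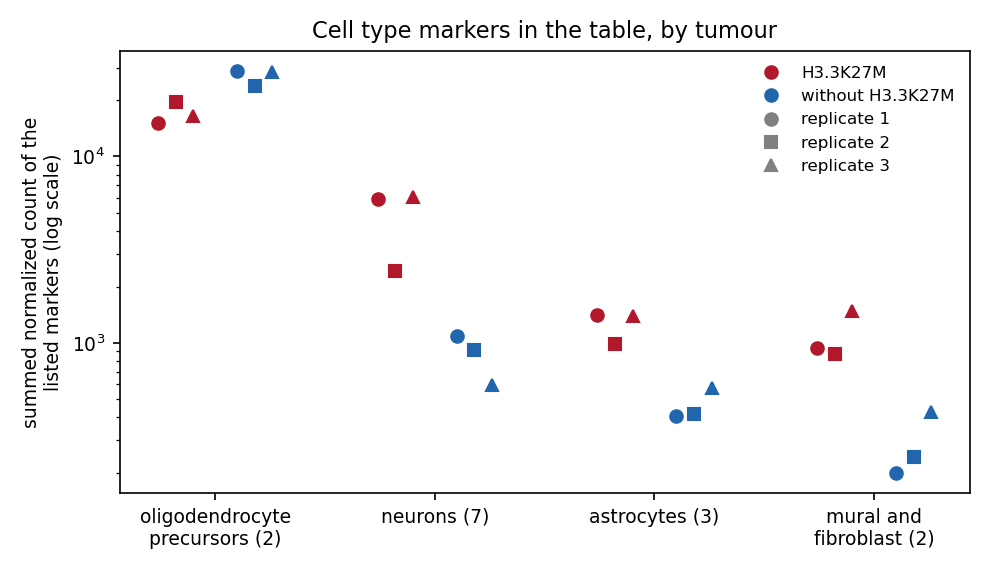
Summed normalized counts, on a log scale, of the listed members of 4 marker lists in each tumour (number of listed members in brackets; Dll3 left out of its list), H3.3K27M in red and without H3.3K27M in blue. The oligodendrocyte precursor sum, that of Bcas1 and Kcnip3 alone, is lower in the H3.3K27M tumours, at 15083 to 19502 against 23888 to 28790. The other sums are higher in them.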

How the data were processed

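RNA was sequenced from 3 H3.3K27M and 3 other brainstem gliomas of mice by a service provider, per the labels' protocols. The design text calls the tumours independent, so each is 1 replicate. Replicates were numbered in accession order within a group. The labels name neither an aligner nor a counter, nor whether libraries kept strand.

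The authors deposited 1 table of 223 genes, made with DESeq on builds mm9 and NCBIM37 per the submitters' processing notes. Per the file headers it holds, for each gene, a normalized count signal per tumour and per group, a ratio of group means, the log2 of that ratio, and p-values before and after adjustment. All 6 tumour columns were matched by the number opening the title, and 0 such columns had no match. The deposited adjusted p-values equal the Benjamini-Hochberg formula over 16365 tests in all 223 genes, within a relative difference of 1e-06.

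In each column 100% of values were whole multiples of 1 step within 0.01. The implied size factors were 0.917 to 1.06, and the implied reads of the listed genes summed to 215758 to 277881 per library. Total depth is unknown. Too few low values are listed to settle that a step is a read, so no count test was run. The step search was tested on simulated data.

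Means, SDs and profile distances were computed with Python 3.11.15, numpy 2.4.6 and pandas 2.3.3. The members and all gene lists were chosen with earlier results of these data known. Named genes were the members, every listed pathway and marker gene, and the 5 listed genes nearest to each member in profile. Promoter sequences come from RefSeq (GRCm38.p6), both members matched by symbol, and lengths from GENCODE M21. Alternatives tried were pseudocounts of 1 and 10, medians, unscaled reads, rescaling, leaving out each tumour, and stricter limits for listing.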

Additional observations from a re-analysis of the deposited data

How the results depend on the processing

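Of 35 values recomputed under other settings, 32 kept their direction and moved by less than the spread between tumours or kept their count within 1.5 times. Leaving out each tumour in turn gave log2 changes of 0.71 to 0.89 for Notch2, of -0.82 to -0.57 for Dll3 and of 1.38 to 1.66 for their ratio. As the groups do not overlap for these values, leaving out a tumour could change the size but not the direction. Rescaling each tumour to the median of the listed genes turned Notch2 to -0.37 and moved Dll3 to -1.84. This follows from its construction, as most listed genes were higher in H3.3K27M tumours. At an adjusted p under 0.01 in the authors' deposited table, 0 of the 87 Notch pathway genes were listed, against 2 at 0.05. Limits of a mean of 100 normalized counts or of 1.5-fold left that count at 2, as both genes lie above them. With a pseudocount of 10, 4 of the 5 genes nearest to Notch2 and 5 of the 5 nearest to Dll3 were shared. No paired analysis was possible because the labels give the groups no common replicate numbers and no test was run on the members.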

Other observations

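Notch2 and Dll3 differ in opposite directions between the groups, but Dll3 is not among the listed genes closest to a mirrored Notch2 profile. The distance used includes the size of the difference between the groups, so it does not measure mirroring within a group. With the sign of the centred Notch2 profile turned, Dll3 lay at a root-mean-square distance of 0.26 on the log2 scale. The median over the 41 lower genes was 0.25, and Dll3 ranked 22 of 41, a comparison chosen after the values were seen.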
